A study of Mus musculus with 6 samples.

Results

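The genes described here were the subunits of the AMPA and NMDA receptors, the ion channels that carry most fast excitatory glutamate signals. They were chosen by gene symbol, and all 10 (Gria1 to Gria4, Grin1, Grin2a to Grin2d and Grin3a) were among the 25755 genes of the deposited table. RNA was sequenced in bulk from whole optic nerves at 3 months of age, all of the genotype Nf1flox/flox; hGFAP-Cre, with 3 mice after a sham operation (mice 1 to 3) and 3 after optic nerve crush (ON-CR, mice 4 to 6), with surgery several weeks before collection. In both groups Cre was driven by the human GFAP promoter, which is active in neuroglial progenitors, so Nf1 was deleted in the progeny of these progenitors and not in every cell of the nerve, and sham and ON-CR mice alike carried this deletion. The study asked what nerve injury changes around the cells from which optic gliomas arise, and glutamate was among the signals it examined.

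AMPA receptors are tetramers of GluA1 to GluA4, encoded by Gria1 to Gria4. NMDA receptors combine the obligatory GluN1 subunit (Grin1) with GluN2 subunits (Grin2a to Grin2d), which bind glutamate, or with GluN3 subunits such as GluN3A (Grin3a), which bind glycine. The optic nerve holds the axons of retinal ganglion cells but no neuronal cell bodies, and its oligodendrocyte precursors, oligodendrocytes and astrocytes are known to express glutamate receptors.

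All 10 subunits share a short stretch near the end of the membrane helix M3, part of the channel gate. It is shown because it is the longest run of codons that translates alike in every member. The bases of these codons differ from gene to gene, except that Gria1 and Grin2a have the same bases. The stretch is printed for 7 of the members, and Grin2a is not among them. Capitals mark these 7 codons, and the lower-case bases are the codons on either side, read 5′ to 3′ from the GRCm38 genome within 1 exon each.
Gria1 (chr11:57283559-57283609, plus strand): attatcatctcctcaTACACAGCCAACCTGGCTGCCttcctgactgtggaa
Gria2 (chr3:80702557-80702607, minus strand): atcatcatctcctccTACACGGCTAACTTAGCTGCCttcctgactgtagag
Gria3 (chrX:41620846-41620896, plus strand): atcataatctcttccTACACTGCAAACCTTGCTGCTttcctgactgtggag
Gria4 (chr9:4462005-4462055, minus strand): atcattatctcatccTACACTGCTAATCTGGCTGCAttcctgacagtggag
Grin1 (chr2:25297187-25297237, minus strand): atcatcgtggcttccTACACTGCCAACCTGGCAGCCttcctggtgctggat
Grin2c (chr11:115253737-115253787, minus strand): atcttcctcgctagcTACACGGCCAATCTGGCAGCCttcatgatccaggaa
Grin3a (chr4:49770458-49770508, minus strand): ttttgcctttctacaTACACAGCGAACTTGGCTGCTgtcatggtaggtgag

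The longest run of identical bases between the transcripts of 2 members was 59, between Gria3 and Gria4. How reads shared between paralogs were split was not stated in the sources used here, so a small exchange of reads within the Gria group cannot be told apart from expression. On the other strand, the antisense gene Grin1os overlaps 1307 exon bases of Grin1 and the predicted gene Gm45441 overlaps 643 exon bases of Grin2d. Grin1os itself was listed at 1.10 to 3.34 in the 6 libraries, against 65.7 to 324 for Grin1. A further set of sequences is shown because function turns on it: the Q/R site, the codon in the pore of the AMPA receptors at which RNA editing of Gria2 sets calcium permeability. Capitals mark that codon in the genome, before any editing, and the gene values below do not show how much of the RNA was edited.
Gria1 (chr11:57243064-57243119, plus strand): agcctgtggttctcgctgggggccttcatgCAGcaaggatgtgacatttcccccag
Gria2 (chr3:80706888-80706943, minus strand): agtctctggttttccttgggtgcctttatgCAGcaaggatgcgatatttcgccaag
Gria3 (chrX:41610235-41610290, plus strand): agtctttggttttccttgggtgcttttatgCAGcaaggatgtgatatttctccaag
Gria4 (chr9:4464114-4464169, minus strand): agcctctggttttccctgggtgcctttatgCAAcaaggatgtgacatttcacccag

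Values are the authors' normalized values per gene, that is, estimated read counts divided by a factor for each library. A group mean is given with its SD over 3 libraries, each labelled as 1 mouse. A log2 fold change is ON-CR over sham on the log2(value + 1) scale, and every p is from limma, two-sided, with Benjamini-Hochberg adjustment over the 25755 genes where it is called adjusted. A gene is called changed where its adjusted p did not exceed 0.05. Nothing in the labels says that the mice of a group were independent litters or operations, so the p-values measure the spread between these libraries. A permutation test of 3 mice against 3 cannot give an exact p below 0.1, and none was used.

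The libraries did not differ by surgery alone. Depth was 17414091 to 23621006 estimated reads. The summed value of 10 markers of brain neurons (Rbfox3, Snap25, Syt1, Syt4, Stmn2, Gad1, Gad2, Slc32a1, Celf4 and Camk2a) was 8564, 3173 and 2732 in the sham libraries (mice 1 to 3), and 2653, 17648 and 5026 in the ON-CR libraries (mice 4 to 6). All 10 markers were highest in ON-CR mouse 5, at 3.23 to 7.42 times the mean of the other 2 ON-CR mice, and none was at 0 in any library. Of 6 retinal ganglion cell markers, the neurofilament genes Nefl, Nefm and Nefh were also highest in that library, while Rbpms, Sncg and Pou4f1 were not, and the sum was 2894 against 749 to 1303 elsewhere. Xist, transcribed from the inactive X chromosome, was 2.14 to 30.9 in the sham libraries and 2708 to 6357 after ON-CR, and the Y-linked gene Ddx3y was 1291 to 1645 in the sham libraries, 976 in ON-CR mouse 4 and 0 to 4.19 in ON-CR mice 5 and 6. Xist thus separated the groups, and sex and surgery cannot be told apart. The split was not clean, because ON-CR mouse 4 held both Xist and Ddx3y, so its library does not read as 1 sex. The labels name 1 mouse per library. The study's methods for RNA extraction and qPCR of optic nerves give 2 mice per sample, without saying whether this held for the sequenced libraries. Mouse numbers here are therefore those of the labels, and whether a library held RNA of more than 1 mouse was not tested. Markers of mature oligodendrocytes, a defining cell of the nerve, were abundant in all 6 libraries, and 6 of 8 fell after ON-CR by limma, a count that was 5 when sham mouse 3, ON-CR mouse 4 or ON-CR mouse 5 was left out, 2 when sham mouse 1 was, and 0 when either sham mouse 2 or ON-CR mouse 6 was. The 7 markers of oligodendrocyte precursors summed to 6125 to 6616 in sham nerves and 6100 to 7339 after ON-CR. Of them 1, Lhfpl3, was called higher, a call kept only without ON-CR mouse 5 among the single-mouse omissions. The list was split: Lhfpl3 was higher in every ON-CR mouse than in every sham mouse, while Pdgfra and Neu4 were lower in every ON-CR mouse and not called. The log2 fold changes of Pdgfra and Neu4 were -0.29 and -0.40, and those of the other 5 markers were above 0. Over all genes 21.6% did not overlap between groups. Microglia and macrophage markers summed to 14932 to 19255 in sham nerves and 18893 to 28717 after ON-CR, with 2 of 7 called higher (0 to 4 when 1 mouse was left out). The log2 fold changes of 5 of the 7 were above 0, while P2ry12 and Tmem119 went the other way and were not called. That of P2ry12 was -0.35, and that of Tmem119 was -0.33 to -0.15 when 1 mouse was left out. Markers of proliferating cells summed to 187 to 260 and 542 to 1054, with 3 of 4 called higher (1 to 3 when 1 mouse was left out). Astrocyte markers summed to 191850 to 237210 in sham nerves and 248470 to 282240 after ON-CR, with Gfap alone at a mean of 114860 and 179240. This list was also split. Gfap and Aqp4 were higher in every ON-CR mouse than in every sham mouse and not called. Aldoc and S100b were lower in every ON-CR mouse, and S100b was called (0 to 2 of 7 called lower when 1 mouse was left out). The part of these cell types in the members' values was not tested. Nf1 was 343 to 447 in sham nerves and 380 to 438 after ON-CR, with an adjusted p of 0.798 by limma.

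None of the 10 subunits was called changed by limma, either higher or lower. Over all genes 540 of 25755 (2.10%) were called, 250 of them higher (0.971%) and 290 lower (1.13%). At an unadjusted p under 0.05 there was 1 member, Gria3, against 15.6% of all genes. The 3 ON-CR values lay wholly above or below the 3 sham values for 2 members, Gria3 (higher) and Grin2c (lower), against 21.6% of all genes. The median log2 fold change of the members was 0.24, beside 0.03 over all genes, and it was -0.13 without ON-CR mouse 5. The members were therefore not called more often than other genes by any of these counts. In a bulk library, fewer cells of a type and less RNA per cell cannot be told apart.

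**Figure D1:**
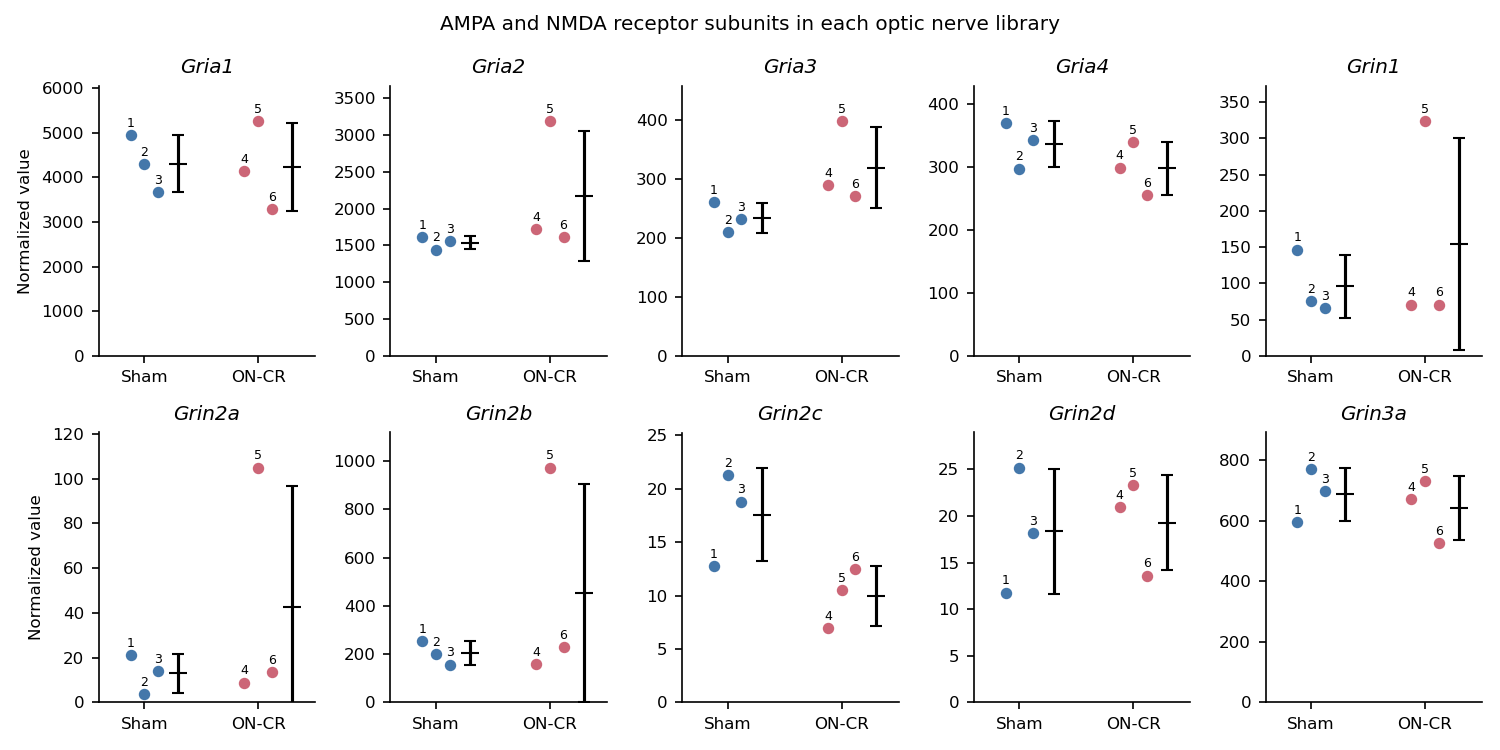
Normalized value of each subunit (vertical axis, from 0, on its own scale) in the 3 sham libraries (blue) and 3 ON-CR libraries (red), labelled by mouse number, with the group mean and SD beside the points (SD bars that would pass below 0 end there). Grin1, Grin2a and Grin2b stood out in mouse 5 (324, 105 and 972), while Gria3 and Grin2c were the only members whose groups did not overlap.

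Among the AMPA receptor subunits, Gria1 had the highest values. It encodes GluA1, a subunit known for its part in activity-dependent receptor delivery, and lies at chr11:57011387-57330244 on the plus strand. The sham nerves gave normalized values of 4947, 4302 and 3673, against 4142, 5260 and 3295 in the ON-CR nerves. The groups overlapped fully and their means were nearly the same, at 4307 ± 637 and 4232 ± 986. Between groups the log2 fold change was -0.04 ± 0.17 (SE), with a 95% confidence interval of -0.43 to 0.35 and an adjusted p of 0.938 by limma. The interval thus leaves room for changes up to about 1.27-fold upward or to 0.744 of the sham level. The sign of this small value was not stable: it was 0.09 when libraries were scaled to their totals.

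Gria2 encodes GluA2, the subunit whose edited form makes the channel nearly impermeable to calcium, and lies at chr3:80681450-80802835 on the minus strand. Its values were 1613, 1440 and 1554 in sham mice and 1724, 3186 and 1608 after ON-CR. Mouse 5 was at 1.91 times the mean of the other 2 ON-CR mice, which sat within or just above the sham range. Over all mice the log2 fold change was 0.43 ± 0.22 (SE), with a confidence interval of -0.06 to 0.92 and an adjusted p of 0.388 by limma. Without mouse 5 it was 0.12 (adjusted p of 0.689 by limma).

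Gria3 encodes GluA3 and is the X-linked member, at chrX:41400854-41678601 on the plus strand. Its values were 260, 210 and 232 in sham mice and 289, 397 and 270 after ON-CR. Every ON-CR value was above every sham value, and the nearest pair, sham mouse 1 and ON-CR mouse 6, were 260 and 270. Gria3 had a log2 fold change of 0.43 ± 0.18 (SE), with a confidence interval of 0.02 to 0.84, an unadjusted p of 0.0422 and an adjusted p of 0.297 by limma. Over the 15 alternative settings it kept its sign, from 0.26 to 0.56, with adjusted p from 0.184 to 0.607 by limma, and it was 0.26 without mouse 5. Because the gene is X-linked and Xist separates the groups as given above, the part of sex in this difference was not tested.

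Gria4 encodes GluA4, and lies at chr9:4417896-4796234 on the minus strand. Its values were 369, 298 and 343 in sham mice and 299, 340 and 255 after ON-CR. The groups overlapped, with a log2 fold change of -0.18 ± 0.16 (SE), a confidence interval of -0.54 to 0.19 and a limma adjusted p of 0.656. Gria4 was the AMPA receptor subunit with the lowest ratio of ON-CR mouse 5 to the other 2 ON-CR mice, at 1.23.

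Grin1 encodes GluN1, without which no NMDA receptor forms, and lies at chr2:25291181-25319187 on the minus strand. Its values were 146, 75.2 and 65.7 in sham mice and 70.6, 324 and 70.5 after ON-CR. The pair of ON-CR mice 4 and 6 lay between the values of sham mice 2 and 3, while mouse 5 was at 4.59 times their mean. Over all mice Grin1 had a log2 fold change of 0.38 ± 0.54 (SE), with a confidence interval of -0.83 to 1.59 and an adjusted p of 0.793 by limma. Without mouse 5 it turned to -0.34 (adjusted p of 0.677 by limma).

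Grin2a encodes GluN2A, the subunit known for its rise in the forebrain after birth, and lies at chr16:9567898-9995560 on the minus strand. Its values were 21.2, 3.54 and 14.1 in sham mice and 8.87, 105 and 13.5 after ON-CR. These rested on few reads, an estimated 20, 4 and 15 in sham libraries and 9, 100 and 13 in ON-CR libraries. Mice 4 and 6 lay within the sham range, and mouse 5 was far above it. The log2 fold change was 1.10 ± 0.89 (SE), with a confidence interval of -0.87 to 3.08 and an adjusted p of 0.602 by limma, and it was 0.06 without mouse 5.

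Grin2b encodes GluN2B, the GluN2 subunit that leads in the embryonic and newborn brain, and lies at chr6:135713233-136173511 on the minus strand. Its values were 255, 200 and 156 in sham mice and 160, 972 and 229 after ON-CR. Mouse 5 was at 5.00 times the mean of the other ON-CR mice, both of which fell within the sham range. For Grin2b the log2 fold change was 0.72 ± 0.53 (SE), with a confidence interval of -0.47 to 1.91 and an adjusted p of 0.570 by limma. Without mouse 5 it was -0.06 (adjusted p of 0.937 by limma).

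Grin2c encodes GluN2C, a subunit of cerebellar granule cells that glia also express, and lies at chr11:115249169-115267243 on the minus strand. Its values were 12.7, 21.2 and 18.8 in sham mice and 6.98, 10.5 and 12.5 after ON-CR. Every ON-CR value was below every sham value, though sham mouse 1 and ON-CR mouse 6 were nearly level. The estimated reads were 12, 24 and 20 in sham libraries and 7, 10 and 12 after ON-CR. The log2 fold change was -0.76 ± 0.46 (SE), with a confidence interval of -1.78 to 0.25 and an adjusted p of 0.466 by limma, and it was -0.81 without mouse 5. Over the 15 alternatives it ranged from -1.02 to -0.55, with adjusted p from 0.356 to 0.744 by limma.

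Grin2d encodes GluN2D, a subunit with slow channel closing, and lies at chr7:45831883-45878378 on the minus strand. Its values were 11.8, 25.2 and 18.1 in sham mice and 20.9, 23.3 and 13.6 after ON-CR. The groups overlapped, with a log2 fold change of 0.09 ± 0.44 (SE), a confidence interval of -0.89 to 1.08 and an adjusted p of 0.944 by limma.

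Grin3a encodes GluN3A, which lowers the calcium entry and magnesium block of receptors that hold it, and lies at chr4:49661611-49845744 on the minus strand. Its values were 595, 769 and 698 in sham mice and 671, 731 and 526 after ON-CR. It was the NMDA receptor subunit with the most reads in 5 of the 6 libraries, and Grin2b exceeded it in mouse 5. The log2 fold change was -0.10 ± 0.16 (SE), with a confidence interval of -0.46 to 0.25 and an adjusted p of 0.813 by limma.

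**Figure D2:**
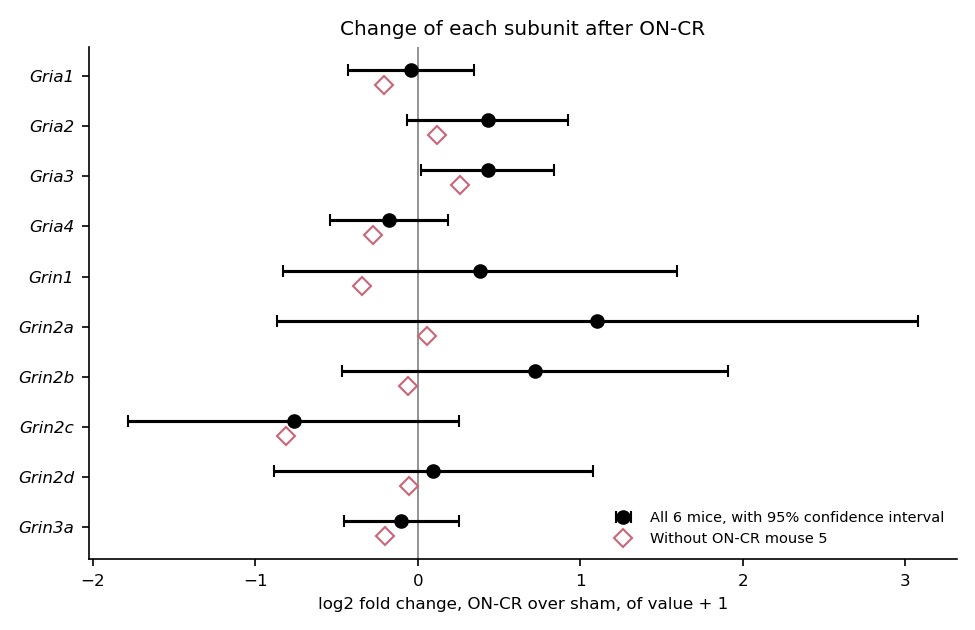
Change of each subunit (horizontal axis, log2 fold change of value + 1, ON-CR over sham) over all 6 mice with its 95% confidence interval (black) and without ON-CR mouse 5 (open diamonds). The intervals were widest for Grin2a, Grin1 and Grin2b, whose estimates moved from 1.10, 0.38 and 0.72 to 0.06, -0.34 and -0.06 without that mouse.

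The high values of ON-CR mouse 5 were uneven over the family. Its ratio to the mean of ON-CR mice 4 and 6 was 9.37 for Grin2a, 5.00 for Grin2b and 4.59 for Grin1, and 1.08 to 1.91 for the other 7 members. Of the 19650 genes with a mean value of at least 10, only 0.351% had a ratio as high as that of Grin2a, 1.25% as high as Grin2b and 1.48% as high as Grin1, and the median ratio of these genes was 0.976. In sham mouse 1, the sham library with the most neuron markers, the same 3 genes were again the highest members relative to sham mice 2 and 3, at 2.41 for Grin2a, 2.08 for Grin1 and 1.43 for Grin2b. Grin3a, Grin2c and Grin2d went the other way there, at 0.812, 0.636 and 0.543. Slc17a6, which encodes the vesicular glutamate transporter of many projection neurons and was picked after its values were seen, was 416 in ON-CR mouse 5 and 14.1 to 52.0 in the other libraries. With the summed neuron markers of each library as a covariate, the log2 fold changes were -0.06 for Grin1, 0.47 for Grin2a and 0.28 for Grin2b. Leaving out both sham mouse 1 and ON-CR mouse 5, they were 0.01, 0.53 and 0.11, and no member was called by limma in either fit. Whether neurons other than the axons of the nerve contributed RNA to these libraries was not tested.

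**Figure D3:**
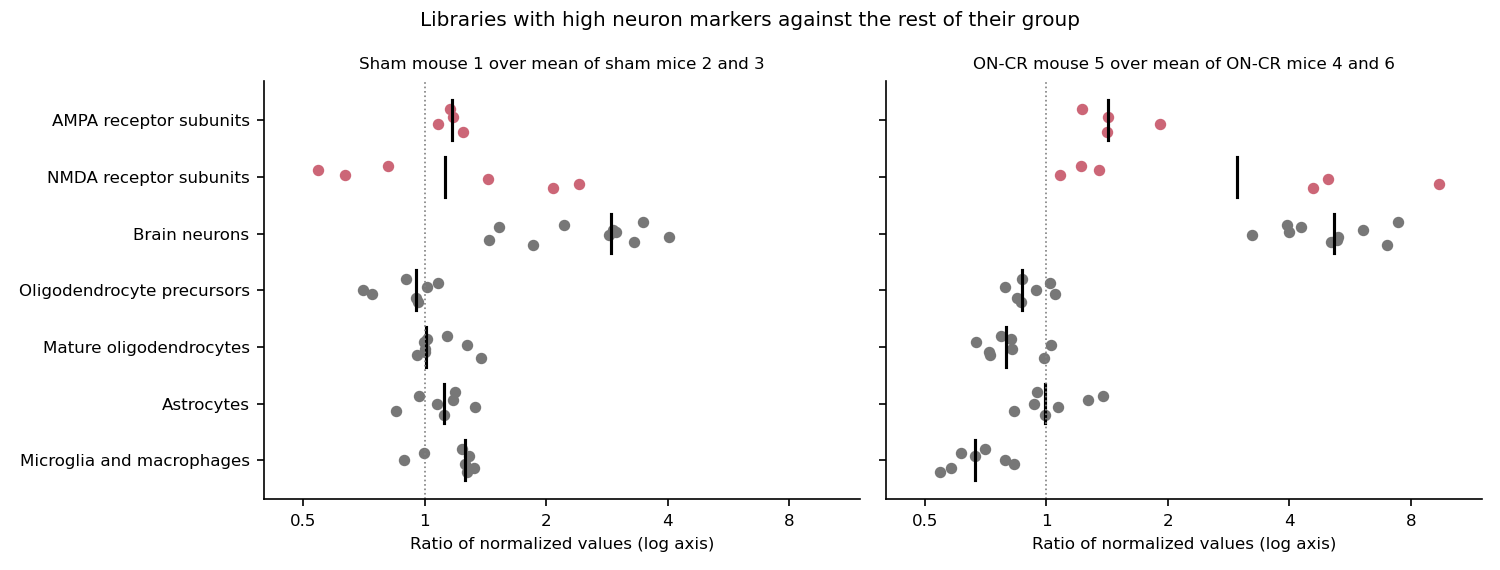
Ratio of sham mouse 1 to the mean of sham mice 2 and 3 (left) and of ON-CR mouse 5 to the mean of ON-CR mice 4 and 6 (right), on a log axis, with 1 point per gene and a bar at the median of each list. On the right, 3 NMDA receptor subunits (4.59 to 9.37) lay among or above the 10 brain neuron markers (3.23 to 7.42), and the AMPA receptor subunits (1.23 to 1.91) lay below all of them.

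To compare levels between the genes, each value was divided by the length of the longest coding transcript. On this scale the sham levels per kb were 777 ± 115 for Gria1, 148 ± 8.46 for Gria2, 91.8 ± 11.7 for Grin3a, 61.9 ± 6.66 for Gria4, 45.1 ± 4.84 for Gria3 and 22.4 ± 10.3 for Grin1. The levels of the GluN2 genes were lower, at 8.46 ± 2.06 for Grin2b, 3.59 ± 0.895 for Grin2c, 3.38 ± 1.24 for Grin2d and 0.885 ± 0.608 for Grin2a. Neighbours in this order had sham ranges that lay apart, except Grin2c and Grin2d, whose ranges overlapped. The order depended in part on the length used. With the exons of all transcripts merged, Grin3a and Gria4 overlapped, and so did Grin1 and Grin2b. With the coding bases alone, Grin2b stood above Grin1 with overlapping ranges, and Grin2a overlapped Grin2d. Gria1, Gria2 and Grin3a led in that order on all 3 scales.

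The subunit makeup within a library does not depend on how libraries are scaled. Per kb of transcript, Gria1 made up 76.5%, 76.8% and 72.0% of the AMPA receptor subunit RNA in sham mice and 73.0%, 68.0% and 70.0% after ON-CR, so the groups overlapped by a small margin. Gria2 made up 13.3%, 13.8% and 16.3% in sham mice and 16.2%, 22.0% and 18.3% after ON-CR, with a similar small overlap. Gria3 made up 4.30%, 4.00% and 4.86% in sham mice and 5.44%, 5.49% and 6.13% after ON-CR. Its share was higher in every ON-CR library than in every sham library, also with merged exons or coding bases as the length, and mouse 5 was not the highest on any of these 3 scales. Gria4 made up 6.03% ± 0.738 in sham mice and 5.13% ± 0.568 after ON-CR. These shares are a description, and no test was run on them.

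Among the 4 GluN2 genes, Grin2b made up the largest share per kb in every library, at 63.0%, 47.4% and 44.3% in sham mice and 53.0%, 74.8% and 61.5% after ON-CR. Grin2c made up 15.5%, 24.8% and 26.2% in sham mice and 11.4%, 3.97% and 16.4% after ON-CR, an overlap between sham mouse 1 and ON-CR mouse 6. Of all 6 NMDA receptor genes, Grin3a held 60.9%, 74.5% and 75.6% in sham mice and 75.5%, 42.9% and 68.7% after ON-CR. Per kb, Grin3a exceeded Grin1 by 2.32, 5.84 and 6.06 times in the sham libraries and by 5.43, 1.29 and 4.26 times in the ON-CR libraries, so the ratio was lowest in the library of each group with the most neuron markers. The summed AMPA receptor genes per kb exceeded the summed NMDA receptor genes in every library, by 8.93, 7.33 and 7.47 times in sham mice and 8.63, 6.14 and 8.29 times after ON-CR.

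**Figure D4:**
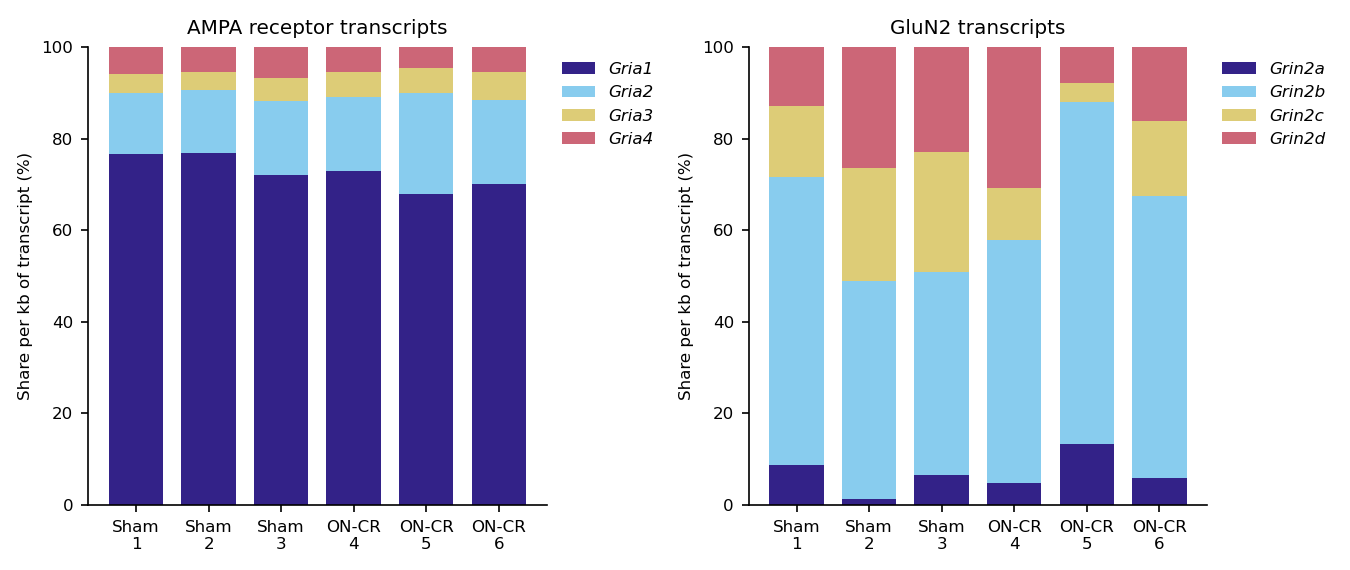
Share of each subunit per kb of its longest coding transcript (percent, vertical axis) in each library, among the 4 AMPA receptor genes (left) and the 4 GluN2 genes (right). Gria1 took 68.0% to 76.8% of the AMPA receptor RNA, and Grin2b took its largest GluN2 share, 74.8%, in ON-CR mouse 5.

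The rest of the glutamate pathway was read from 7 lists of 75 genes, of which 72 were in the table used here. Of these, 1 was called higher and 2 lower by limma. Among the kainate and delta receptor subunits, relatives of the members in the same channel superfamily, 0 of 7 were called. The list's median log2 fold change was 0.06, and Grik2, Grik1 and Grid1, among its genes with the highest values, had log2 fold changes of 0.31, -0.17 and 0.06, and of 0.13, -0.38 and -0.37 without ON-CR mouse 5. Among the AMPA receptor auxiliary and assembly proteins 0 of 16 were called. Cacng4, which encodes a TARP that escorts AMPA receptors to the membrane, was 1272 ± 74.6 in sham nerves and 1254 ± 126 after ON-CR. Frrs1l and Cpt1c, which take part in receptor assembly in the endoplasmic reticulum, had log2 fold changes of -0.05 and 0.11, and Porcn had -0.18. Shisa6, named after its values were seen, was low, at 13.8, 2.66 and 1.88 in sham mice and 42.9, 25.2 and 27.0 after ON-CR. Its log2 fold change was 2.56 (adjusted p of 0.0792 by limma). When 1 mouse was left out, its adjusted p by limma ran from 0.0379 to 0.285. Of this list, 1 gene was called higher without sham mouse 1, with a robust fit and with array weights.

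Of the 7 metabotropic glutamate receptors, Grm3 fell and the other 6 were not called. Grm3, a receptor of astrocytes and oligodendrocyte precursors among other cells, was 1134, 1211 and 956 in sham mice and 769, 693 and 627 after ON-CR. All ON-CR values were below all sham values, at a log2 fold change of -0.66 ± 0.14 (SE) and an adjusted p of 0.0393 by limma. Grm5, known for calcium signals in astrocytes and neurons, was 240, 200 and 251 in sham mice and 325, 608 and 356 after ON-CR, but was not called (log2 fold change of 0.85, adjusted p of 0.0998 by limma). Grm7 was not called either, with a log2 fold change of -0.49, and of -0.94 without ON-CR mouse 5 (adjusted p of 0.0776 by limma). The median log2 fold change of the list was 0.70 with all mice and 0.08 without ON-CR mouse 5.

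Among the 18 scaffold and trafficking proteins, only Neto2 was called with all mice. Neto2, an auxiliary subunit of kainate receptors, was 93.4, 108 and 147 in sham mice and 290, 220 and 238 after ON-CR, at a log2 fold change of 1.11 ± 0.22 (SE) and an adjusted p of 0.0299 by limma. It rose in all 3 ON-CR mice relative to every sham mouse, and ON-CR mouse 5 had the lowest of the ON-CR values. Nsf, Dlgap1, Dlg1 and Dlg4, the last of which encodes the postsynaptic scaffold PSD-95, had log2 fold changes of 0.29, -0.05, -0.23 and 0.11. Without ON-CR mouse 5 those of Nsf and Dlg4 turned to -0.06 and -0.07. Homer3, named after its values were seen, was 249, 290 and 261 in sham mice and 234, 145 and 114 after ON-CR. Its log2 fold change was -0.76 (adjusted p of 0.166 by limma). When 1 mouse was left out, its adjusted p by limma ran from 0.0377 to 0.453. Of this list, 1 gene was called lower without ON-CR mouse 4.

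Of the 7 genes for supply and removal of the NMDA receptor co-agonists glycine and D-serine, Slc6a9 fell. It encodes the glycine transporter GLYT1, and was 7973, 8868 and 6881 in sham mice and 5610, 4641 and 4417 after ON-CR, at a log2 fold change of -0.69 ± 0.13 (SE) and an adjusted p of 0.0294 by limma. Psat1 and Phgdh, enzymes of serine synthesis, also did not overlap between groups, with log2 fold changes of -0.53 and -0.28, but were not called (adjusted p of 0.0616 and 0.291 by limma). Dao, named after its values were seen, did not overlap either, at -1.71 (adjusted p of 0.214 by limma). Its values were low, at 24.4, 25.7 and 27.2 in sham mice and 8.97, 16.8 and 2.08 after ON-CR. In this list 4 of 7 genes lay wholly lower and 0 wholly higher. Over all genes 21.6% did not overlap in either direction, and the share lying wholly lower is not given here. The list was chosen with earlier results of these data known. Srr, which makes D-serine, had a log2 fold change of -0.05. Slc7a10, a D-serine and glycine transporter named after its values were seen, was not called with all mice (log2 fold change of -0.55, adjusted p of 0.593 by limma) but was called lower without ON-CR mouse 5, at -1.16 (adjusted p of 0.0314 by limma). Its log2 fold change ran from -1.16 to -0.10 when 1 mouse was left out, with an adjusted p by limma of 0.943 without ON-CR mouse 6. Mouse 5 was at 611 beside 216 and 142 in the other ON-CR mice and 291 to 456 in sham mice.

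The calls of Grm3, Neto2 and Slc6a9 were lost without some single mice, while their log2 fold changes stayed at -0.76 to -0.58, 0.97 to 1.29 and -0.80 to -0.61 whichever mouse was left out. Leaving out sham mouse 1, sham mouse 2 or ON-CR mouse 6 ended all 3 calls. Leaving out sham mouse 3 ended that of Grm3 (adjusted p of 0.0537 by limma), and leaving out ON-CR mouse 4 ended that of Neto2 (adjusted p of 0.0875 by limma). The adjusted p by limma reached 0.210 for Grm3, 0.164 for Neto2 and 0.191 for Slc6a9 when 1 mouse was left out. Without both sham mouse 1 and ON-CR mouse 5 none of the 3 passed (adjusted p of 0.134, 0.0771 and 0.124 by limma), with log2 fold changes of -0.63, 1.05 and -0.65. Scaling to library totals also ended the call of Grm3, at -0.53 (adjusted p of 0.0612 by limma).

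Among the 14 genes of glutamate transport and metabolism 0 were called. Its 4 genes with the highest values were Slc1a3 and Slc1a2, the astrocyte glutamate transporters, Glul, the glutamine synthetase, and Slc7a11, the cystine and glutamate exchanger. Slc1a3 was higher in each ON-CR mouse than in each sham mouse, with a log2 fold change of 0.31 (adjusted p of 0.269 by limma), and Slc1a2, Glul and Slc7a11 had log2 fold changes of -0.19, -0.23 and -0.06. Of the 3 RNA editing enzymes none was called. Adarb1, whose product edits the Q/R site of Gria2 shown above, was 105, 87.7 and 99.6 in sham mice and 103, 218 and 105 after ON-CR, so it too was highest in mouse 5. Adar and Adarb2 had log2 fold changes of 0.21 and -0.31.

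**Figure D5:**
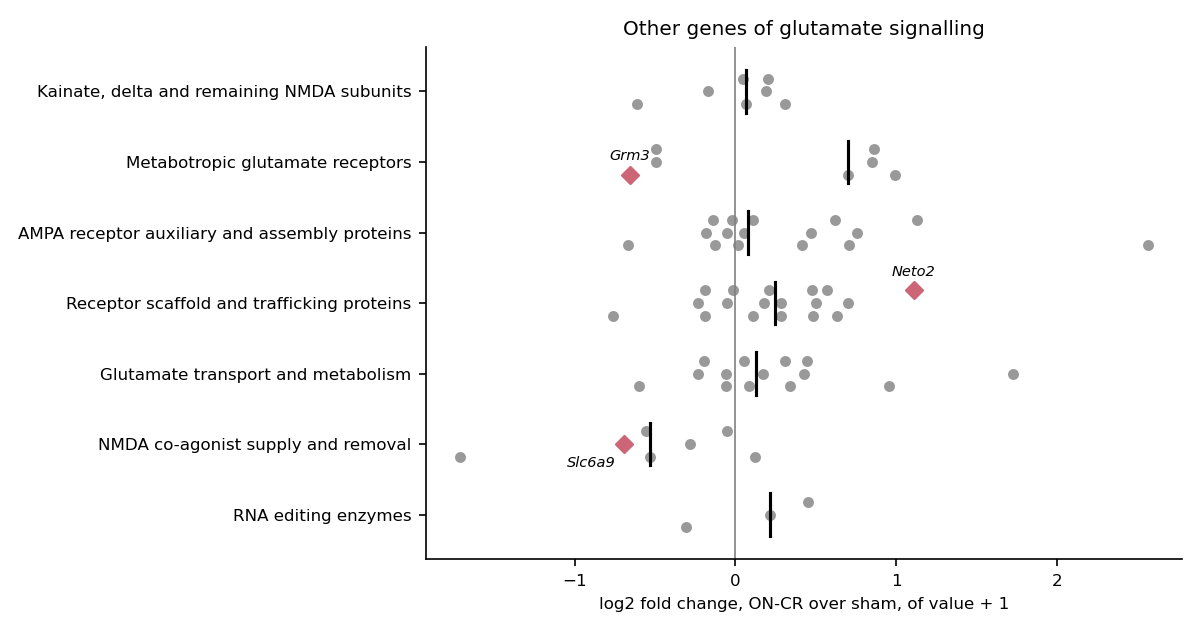
Log2 fold change of value + 1, ON-CR over sham (horizontal axis), of 72 other glutamate pathway genes by list, with called genes as red diamonds and a bar at each list's median. Neto2 (1.11) was called higher and Grm3 (-0.66) and Slc6a9 (-0.69) lower, while the medians of the lists ran from -0.53 to 0.70, the last for the metabotropic receptors, whose median was 0.08 without ON-CR mouse 5.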

How the data were processed

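RNA of whole optic nerves from 3 sham and 3 ON-CR mice was sequenced in bulk from SMARTer Ultra Low libraries. The authors aligned and quantified reads with DRAGEN on the mm10 assembly with Ensembl gene models, then normalized them by the median in Partek Flow (version 10.0 in the submitters' processing notes). The deposited values are a normalized signal per gene, not raw counts: after division by the value of 1 read, 65.1% to 67.7% were whole within 0.01, so no count model was run. The floor of 3 reads was a value of 2.66 to 3.18, which covers counting error only.

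The test was limma 3.58.1 on log2(value + 1) (mean-variance trend, two-sided, Benjamini-Hochberg over 25755 genes, no filter) in R 4.3.3, checked first on simulated data. That check planted large changes in genes of higher value and low spread, so it does not cover small changes or genes with few reads. Lengths, positions and sequences are from GRCm38 with the GENCODE annotation, the assembly named mm10. Named were all members, the called genes and the 4 highest of each pathway list, the markers needed for their lists, and sex-linked genes and Nf1, and some genes and sequences are not reported here. Members and lists were chosen with earlier results of these data known. Alternatives were pseudocounts of 0.5 and 2, a minimum mean of 10, other scalings, robust and weighted fits, leaving out each mouse, and merged-exon lengths. The fit without 2 mice, the neuron marker covariate and coding lengths were added after seeing the data.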

Additional observations from a re-analysis of the deposited data

How the results depend on the processing

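No member was called under any of 15 alternatives. Gria2, Gria3, Gria4, Grin2a and Grin2c kept their direction in all 15, and the log2 fold changes of the other members turned in 12 instances. Scaling to library totals gave 0.087 for Gria1 and 0.026 for Grin3a. Leaving out 1 mouse gave -0.21 to 0.13 for Gria1 (above 0 without sham mouse 1 or ON-CR mouse 6), -0.20 to 0.034 for Grin3a (above 0 without ON-CR mouse 6), -0.18 to 0.34 for Grin2d (below 0 without sham mouse 1 or ON-CR mouse 5), -0.34 to 0.75 for Grin1 and -0.060 to 1.24 for Grin2b (both below 0 without ON-CR mouse 5). Grin2d was -0.011 with array weights and -0.32 without both sham mouse 1 and ON-CR mouse 5, and Grin1 was -0.063 with the neuron marker covariate. The cause of these turns was not tested.

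Genes called over the whole table numbered 540 with all mice, 67 to 854 when 1 mouse was left out (67 without ON-CR mouse 6, 123 without sham mouse 2, 192 without sham mouse 1, 258 without sham mouse 3 and 854 without ON-CR mouse 5) and 975 with the covariate. Scaling to totals called 421 higher and 195 lower, against 250 and 290 as deposited, and moved the median of all genes from 0.03 to 0.15. Of the 72 pathway genes, 3 were called with all mice, 2 with scaling to totals, 5 with a robust fit and with array weights, 1 without both named mice, and 0 to 4 when 1 mouse was left out. Mean shares in sham and ON-CR libraries were 80.1% and 76.3% for Gria1 and 11.2% and 14.9% for Gria2 with merged exons. With coding bases they were 66.5% and 60.1% for Gria1, 24.6% and 30.9% for Gria2, and 78.2% and 83.5% for Grin2b, because the transcripts differ in untranslated length.

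No paired analysis was possible because the groups share no mouse numbers. Grin2a, Grin2c and Grin2d rest on few reads, and the intervals of Grin1, Grin2a and Grin2b are the widest.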
